A study of Mus musculus with 2 samples.

Results

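Nonclassical monocytes, also called patrolling monocytes, are blood cells that crawl along the inner wall of small vessels and take up particles and debris there. In mice they arise mainly from classical, Ly6C-high monocytes, which the chemokine receptor Ccr2 brings out of the bone marrow, and their development depends on the nuclear receptor Nr4a1 and the transcription factor Cebpb. They carry little Ly6C and much Cx3cr1, the fractalkine receptor, and they use the integrin LFA-1, whose alpha chain is Itgal, to hold on to endothelium. In the liver they are found in the sinusoids, next to Kupffer cells and to macrophages derived from classical monocytes.

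Here they were described in single-cell RNA data from the region of hepatocellular carcinoma (HCC) cut out of the livers of C57BL/6 mice aged 17 months, all of which had been on a CD-HFD diet for 15 months. The inhibitor library came from mice given an inhibitor of FABP5, a fatty acid binding protein, from month 13, and the control library from mice labelled as control, whose treatment was not given in the sources used here. Each group was 1 library, and the number of mice behind it was not given in the sources used here, so that drug, mouse, tumour and library cannot be told apart. The tissue was dissociated with collagenase and passed through an Annexin V kit to enrich live cells (the fraction sequenced was not stated), and transcripts were counted on the 10x Genomics 3′ platform as unique molecular identifiers (UMIs), each of which stands for 1 captured mRNA molecule.

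The cells were chosen by their raw UMIs. Barcodes were kept if they held at least 300 genes and a mitochondrial share of UMIs of at most 25%, and members had at least 3 UMIs of Ace, Treml4 and Ear2 summed, at most 2 of the classical monocyte genes F13a1, Chil3 and Vcan, at most 2 of the complement genes C1qa, C1qb and C1qc, and none of the T cell genes Cd3d, Cd3e and Cd3g, of the B cell gene Cd79a or of the neutrophil gene Retnlg. Of 16305 kept barcodes 376 were members. There were 241 among 9470 kept barcodes of the inhibitor library, a share of 2.54% (95% Clopper-Pearson interval 2.24 to 2.88%), and 135 among 6835 kept barcodes of the control library, a share of 1.98% (1.66 to 2.33%). Because the 14 genes of the rule chose the cells, their levels are given below as a description. With 1 library per group no test was possible, and every interval in the text is a 95% interval for counting error alone, since it holds neither the spread between mice nor that between libraries.

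The libraries held 10649 and 9493 deposited barcodes with 68074929 and 53378693 UMIs in the inhibitor and the control library. The libraries shared 29 barcode sequences, none of them among the members. Members had a median of 5465 UMIs and 1926 genes in the inhibitor library, against 7533 UMIs and 2164 genes in the control library. Median mitochondrial shares were 3.53% in inhibitor members and 4.03% in control members. Liver-cell RNA differed between the libraries: albumin (Alb) stood at 25.1 CPM (counts of the gene scaled to a total of 1000000 UMIs) in inhibitor members and at 746 CPM in control members, while in B cells of the same libraries it stood at 33.8 and 507 CPM. The hepatocyte list summed to 184 CPM in inhibitor members and 1928 CPM in control members. Haemoglobin summed to 6164 CPM and 5807 CPM, but 50.5% of it came from 1 inhibitor member and 92.7% from 1 control member.

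The share of these cells depended on what it was taken of. Over kept barcodes it was higher in the inhibitor library by 0.37 on the log2 scale (0.06 to 0.68). Over the nonclassical monocytes, classical monocytes and C1q macrophages together, it was 6.67% in the inhibitor library and 15.9% in the control library, a log2 ratio of -1.25. The denominators differed as well. Classical monocytes, chosen by at least 3 UMIs of F13a1, Chil3 and Vcan with the other limits alike, were 3295 barcodes (34.8% of kept barcodes) in the inhibitor library and 260 (3.80%) in the control library, and C1q macrophages were 79 (0.834%) and 456 (6.67%). The classical monocytes of the libraries were not alike. F13a1 was found in 98.6% of inhibitor and 64.2% of control classical monocytes, and Vcan in 85.6% and 26.9%. How far this enters their ratios below was not tested.

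Barcodes that met both monocyte sums, with at least 3 UMIs of each, lay outside the members by the rule. They numbered 594 (6.27% of kept barcodes) in the inhibitor library and 151 (2.21%) in the control library, and with them included the share was 8.82% against 4.18%, a log2 ratio of 1.08. Their median sum of F13a1, Chil3 and Vcan was 16 UMIs in the inhibitor library and 8 in the control library, below the 30 and 11 UMIs of the classical monocytes. Among B cells, which should lack these genes, 8.56% of inhibitor barcodes and 0.861% of control barcodes had at least 3 such UMIs. How many of the barcodes with both sums are cells between the states, cells with free RNA or pairs of cells was not tested. A simulation marked 65 of the 594 inhibitor barcodes and 7 of the 151 control barcodes as doublets, and it marked 6 of 241 and 7 of 135 members. The total marked was set beforehand from the number of barcodes, at 7.57% of kept inhibitor and 5.47% of kept control barcodes. The counts therefore rank barcodes and do not measure a doublet rate.

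The markers that took no part in the rule went with the label. Eno3, the muscle-type enolase, stood at 309 CPM in inhibitor members and 303 CPM in control members, against 2.46 and 6.86 CPM in classical monocytes, 12.6 and 7.63 CPM in C1q macrophages and 4.95 and 3.13 CPM in B cells. Cd300e, an activating receptor of myeloid cells, stood at 182 and 132 CPM, against 0.326 and 1.47 CPM in classical monocytes. In C1q macrophages Cd300e stood at 61.3 and 7.63 CPM, and in B cells at 3.15 and 0.241 CPM. Adgre4, an adhesion receptor of the EGF-TM7 family, stood at 306 and 245 CPM, against 22.2 and 49.99 CPM in classical monocytes. Its levels were 92.7 and 17.9 CPM in C1q macrophages and 7.66 and 2.41 CPM in B cells. Each of these markers was thus higher in nonclassical than in classical monocytes of the same library. The classical surface antigen Ly6c2 went the other way, at 122 and 118 CPM in members against 1051 and 846 CPM in classical monocytes. Of the rule's own genes, Ace, the angiotensin-converting enzyme, was at 526 CPM in inhibitor members and 354 CPM in control members, Treml4, a receptor of the TREM family, at 403 and 261 CPM, and Ear2, a ribonuclease, at 692 and 468 CPM. No UMI was counted for the Ear2 relatives Ear1, Ear6, Ear10, Ear14 and Rnase2a in members, but reads that such near-identical genes share may have been placed on 1 of them.

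**Figure D1:**
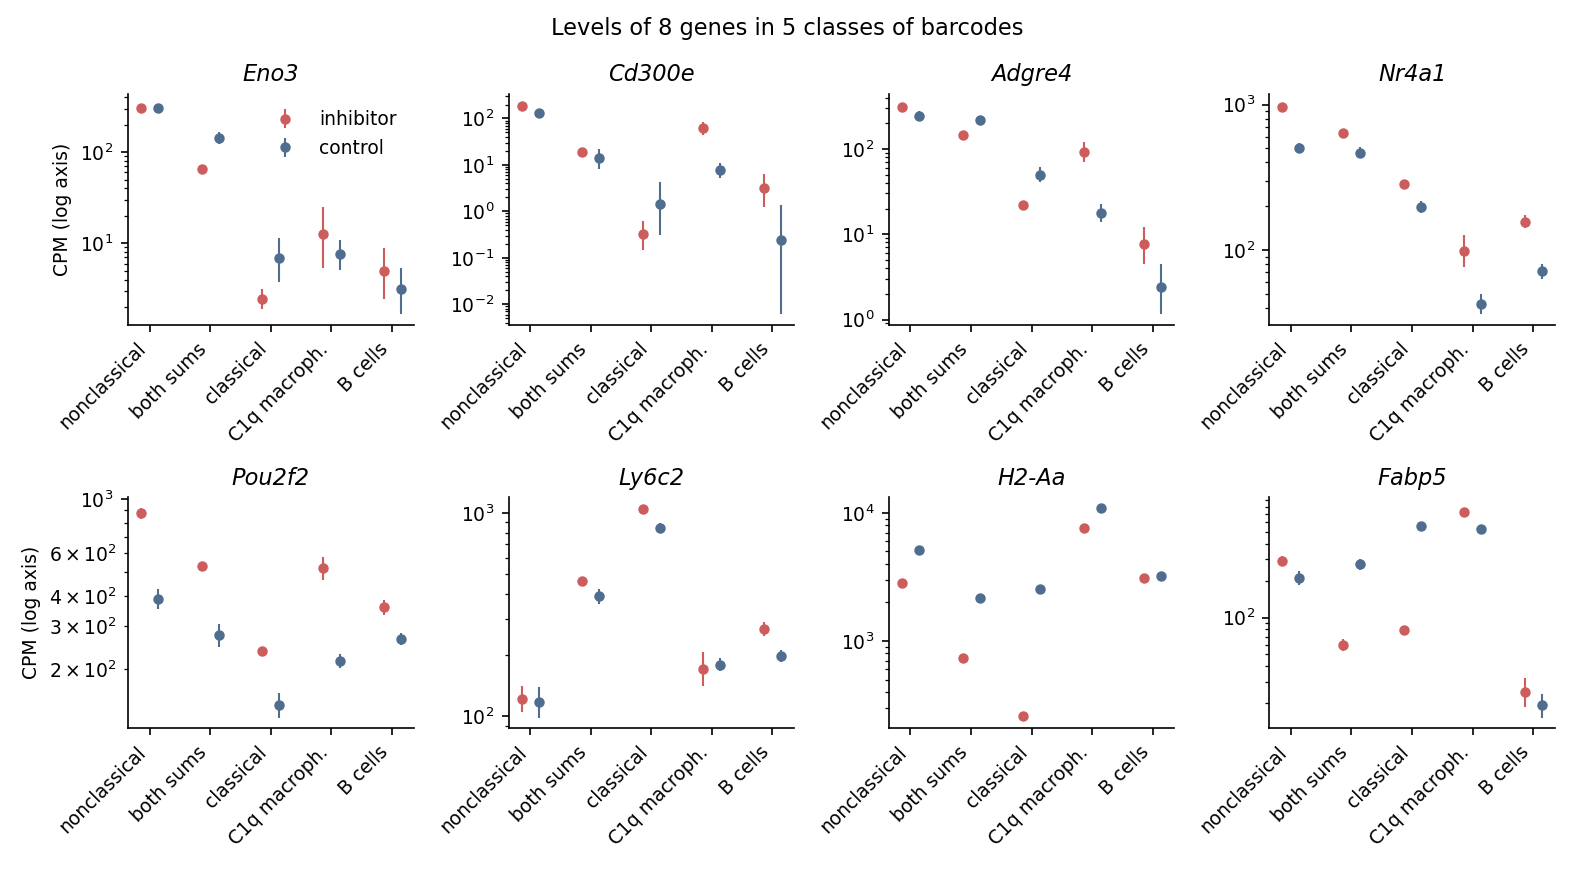
Level of 8 genes (CPM, log axis) in nonclassical monocytes, barcodes with both monocyte sums, classical monocytes, C1q macrophages and B cells, with inhibitor in red left of control in blue and bars for 95% Poisson intervals. Eno3, Cd300e and Adgre4 are highest in nonclassical monocytes of both libraries, and H2-Aa is 2839 CPM in inhibitor and 5091 CPM in control nonclassical monocytes.

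Members were not all alike. The sum of Ace, Treml4 and Ear2 had a median of 9 UMIs in the inhibitor library and 7 in the control library, and 108 inhibitor and 49 control members had at least 10. At the edge of the rule, 19 inhibitor and 29 control members had exactly 3 UMIs, and 33 and 40 barcodes that met every other limit had 2 and were left out. Across that edge Cd300e was 47.8 CPM in inhibitor and 63.8 CPM in control members with a sum of 3, and in barcodes with a sum of 2 it was 16.1 CPM in the inhibitor library and had no UMI in the control library. In members with a sum of at least 10, it was 239 CPM and 238 CPM. Spn (CD43), the sialoglycoprotein used to sort these cells, likewise was 36.2 and 23.3 CPM at a sum of 2 and 440 and 279 CPM at a sum of at least 10.

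Members with low sums held more RNA of dendritic cells. Xcr1, a chemokine receptor of conventional type 1 dendritic cells, was 104 CPM in inhibitor members and 216 CPM in control members with a sum of 3, and had no UMI in members with a sum of at least 10 in either library. Cd74, the invariant chain of MHC class II, was 12942 and 18308 CPM at a sum of 3 and 6174 and 10122 CPM at a sum of at least 10, so that control members were above inhibitor members at both ends. Ccr2 was 861 and 443 CPM at a sum of 3, and 147 and 295 CPM at a sum of at least 10. Over the whole list of conventional dendritic cell genes the summed level was 258 CPM in inhibitor members and 360 CPM in control members. No UMI of Eno3, Cd300e or Adgre4 was seen in 22 inhibitor members (9.13%) and 21 control members (15.6%).

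**Figure D2:**
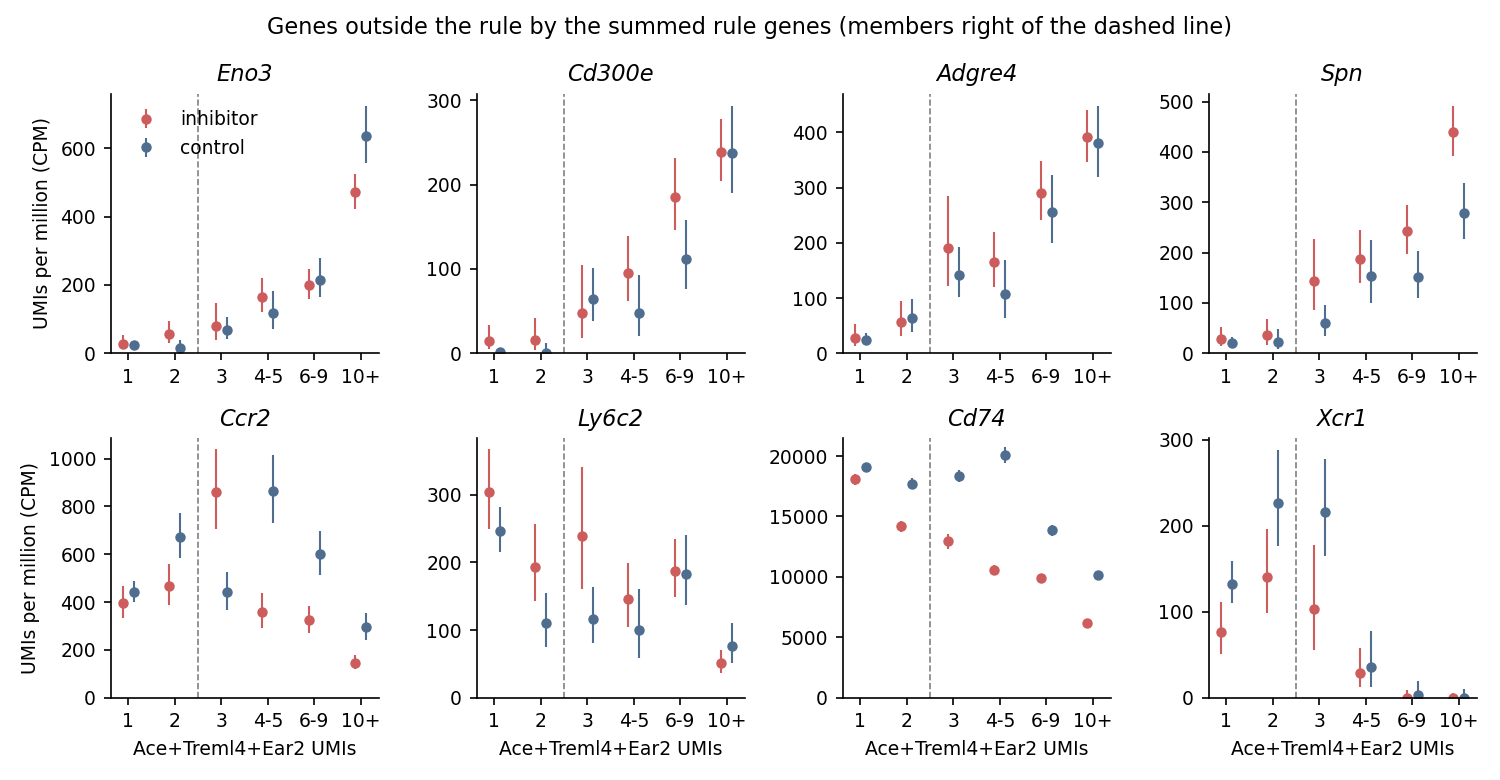
Level of 8 genes (CPM) in barcodes grouped by their summed UMIs of Ace, Treml4 and Ear2, with members right of the dashed line, inhibitor in red left of control in blue, and 95% Poisson intervals as bars. Eno3, Cd300e, Adgre4 and Spn are highest at a sum of at least 10 in both libraries, Xcr1 has no UMI there, and Cd74 of control barcodes lies above that of inhibitor barcodes in each bin.

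Against classical monocytes of the same library, 226 of 7991 genes (2.83%) were at least 2-fold higher in nonclassical monocytes in both libraries and 180 (2.25%) were at least 2-fold lower. Because the cells were chosen by monocyte genes, this is a description of the cells and not a test. Of 28 compared genes of the nonclassical list, which held no gene of the rule, 20 were higher in both libraries and 0 lower, with median log2 ratios of 2.76 in the inhibitor library and 1.92 in the control library, against 0.01 and -0.02 over all compared genes. Of 18 compared genes of the classical list, 0 were higher and 11 lower.

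Cd300e, Eno3 and Slc12a2, a sodium, potassium and chloride cotransporter, led the genes higher in nonclassical monocytes. Slc12a2 was at 106 CPM in nonclassical and 0.544 CPM in classical monocytes of the inhibitor library, and at 63.9 and 1.47 CPM in the control library. Next came Dnah12, a dynein heavy chain with 0 UMIs in classical monocytes of the control library, and Adrb1, the beta-1 adrenergic receptor, at 24.4 against 0.0725 CPM in the inhibitor library and 30.1 against 0.980 CPM in the control library. Dusp16, a phosphatase of MAP kinases, was higher by 4.24 and 3.63 on the log2 scale in the inhibitor and the control library, Spn by 3.70 and 3.32, and Tcf7l2, a transcription factor of the Wnt pathway, by 3.97 and 2.99. The scavenger receptor Cd36 was higher by 5.62 and 2.91, and the IgG receptor Fcgr4 by 4.77 and 2.53. Lilra5 and the BCL2 relative Bcl2a1d completed the 12.

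Fn1 (fibronectin), a matrix protein, was among the genes lower in nonclassical monocytes, at 50.9 CPM against 1438 CPM in classical monocytes of the inhibitor library and 33.8 against 516 CPM in the control library. Its log2 ratios were -4.82 in the inhibitor library and -3.93 in the control library, and the collagenase Mmp8 had -6.90 and -4.56. The chemokine Ccl2 had -2.75 and -2.98, and the chemokine receptor Ccr1 -4.27 and -2.86. Ly6c2, Serpinb1a, Capg, Thbs1, Ms4a8a, Cd177 and S100a10 were also among the 12. Of the MHC class II list, 4 of 9 genes were at least 2-fold higher in nonclassical monocytes of both libraries, with a median log2 ratio of 3.33 in the inhibitor library and 0.98 in the control library. H2-Aa was at 2839 CPM in nonclassical and 258 CPM in classical monocytes of the inhibitor library, and 5091 and 2526 CPM in the control library.

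Against C1q macrophages, 322 of 7081 genes (4.55%) were at least 2-fold higher in nonclassical monocytes in both libraries and 250 (3.53%) lower. Pglyrp1, a peptidoglycan recognition protein, was 383 CPM in nonclassical monocytes of the inhibitor library, with 0 UMIs in its C1q macrophages and so at least 81.27-fold higher when 3 UMIs are set for them, and 215 CPM against 6.58 CPM in the control library. Nr4a1 was higher by 3.28 in the inhibitor library and 3.57 in the control library on the log2 scale, Ceacam1, a cell adhesion molecule, by 4.35 and 4.70, and Ifitm6 by 3.71 and 4.31. The macrophage genes lay the other way: 12 of 13 compared genes of the tissue macrophage list were lower in both libraries, among them the tetraspanin Cd63, with log2 ratios of -5.14 in the inhibitor and -3.52 in the control library, and Ms4a7, with -5.21 and -4.31. C3ar1, the receptor of complement fragment C3a, had ratios of -6.19 and -6.12, and the adhesion molecule Vcam1 -7.16 and -5.80. Of 14 compared genes of lipid-associated macrophages 9 were lower in both libraries, as were 7 of 17 cathepsin and lysosome genes and 7 of 17 type I interferon genes.

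Between the libraries, 5165 genes had at least 50 UMIs over the members of both and were compared. A gene was called higher or lower at a ratio of at least 1.5-fold between inhibitor and control CPM. By that measure 753 genes (14.6%) were higher in inhibitor members and 349 (6.76%) were lower, and the median log2 ratio over all 5165 genes was 0.12, so that a gene or list at 0.12 lies at the middle of all genes. Counts of calls in the lists below are to be read beside these 14.6% and 6.76%. The excess of higher calls rested on the scale: of all calls 68.3% were higher on the CPM scale, 49.9% after division by the median ratio, and 57.8% with mitochondrial, ribosomal and hepatocyte genes left out of the total. With the classical limit lifted it was 56.0%, and with genes from 20 UMIs on 58.1%. With that limit lifted, which adds the barcodes of both sums, 25 of the 80 followed genes past 1.5-fold no longer passed it. They included Nr4a1 (0.55), Cebpb (0.51), Klf4 (0.27), Tcf7l2 (0.26), Id2 (-0.49), Bcl2 (0.45), Cd36 (0.25), Lpl (-0.33), H2-DMa (-0.53), Prdx1 (-0.32) and C5ar1 (0.58).

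Of the 28 genes of the nonclassical list with enough UMIs, out of 30, 14 were higher in inhibitor members and 1 was lower, where 14.6% and 6.76% of all genes were. The median log2 ratio of the list was 0.56, and the lower gene was Myof, a ferlin of membrane repair, at 26.4 CPM in inhibitor and 45.7 CPM in control members. In classical monocytes of the same libraries the genes of this list had a median of -0.18, while in C1q macrophages it was 0.94, with 15 of 24 genes higher and 4 lower. Of all 6774 genes measured in C1q macrophages, 1428 were higher and 1068 lower. With barcodes of both sums included the median over members was 0.17, and without members holding genes of other cells 0.28.

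Among the regulators, Nr4a1 was 960 CPM in inhibitor members and 504 CPM in control members, a log2 ratio of 0.93 (0.79 to 1.07). Per cell, its median was 9.77 UMIs per 10000 in inhibitor members and 3.94 in control members. Shares of cells with a UMI were compared after thinning each cell to 2000 UMIs, which left 236 inhibitor and 132 control members and 401 and 665 B cells. Before thinning the median depth of all B cells was 2940 UMIs in the inhibitor and 3383 UMIs in the control library. After thinning 78.8% of inhibitor and 50.8% of control members had an Nr4a1 UMI, against 94.2% and 78.5% before thinning, and the thinned shares of B cells were 23.2% and 15.8%. The difference was thus present in the depth-matched shares as well, although Nr4a1 was also higher in inhibitor B cells, at 157 against 71.1 CPM, and in inhibitor classical monocytes, at 287 against 198 CPM. Pou2f2 (OCT2), a POU-domain factor, was 874 and 388 CPM, a log2 ratio of 1.17 (1.01 to 1.33), and was found in 72.9% and 45.5% of thinned members. Cebpb was 3496 and 1999 CPM, a log2 ratio of 0.81 (0.73 to 0.88). Without members holding genes of other cells, Nr4a1 had a log2 ratio of 0.72 and Cebpb of 0.55, the last within 1.5-fold. Among members with a sum of at least 5, Nr4a1 had 0.74, Pou2f2 0.94 and Cebpb 0.62. Nr4a1 and Cebpb, on which these cells depend, and Pou2f2 were not higher in these cells alone. Cebpb had log2 ratios of 2.33 in B cells, 1.35 in C1q macrophages and 0.53 in classical monocytes, and Pou2f2 of 0.43, 1.27 and 0.74. The B cell barcodes held monocyte RNA, with F13a1, Chil3 and Vcan summing to 516 CPM in the inhibitor and 19.3 CPM in the control library. How much of the B cell ratios came from such RNA was not tested. Tcf7l2 had a log2 ratio of 0.79 and Klf4, a zinc-finger factor of monocyte development, of 0.83, where Klf4 had -0.02 in classical monocytes, 0.89 in C1q macrophages and 0.50 in B cells.

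Over the whole list of 22 measured transcription factors, 8 were higher and 5 lower, where 14.6% and 6.76% of all genes were. Their median was 0.47. Those lower were Cebpa, the factor of granulocyte and monocyte progenitors, at 24.4 CPM in inhibitor and 61.2 CPM in control members, Batf3, a factor of type 1 dendritic cells, at 29.7 and 63.9 CPM, Irf8 at 227 and 360 CPM, Id2 at 203 and 368 CPM and Maf at 21.8 and 37.4 CPM. Batf3, Irf8 and Id2 are also genes of type 1 dendritic cells, whose gene Xcr1 was seen mainly in the members with low sums. Without members holding genes of other cells, the log2 ratio of Irf8 was 0.02 in place of -0.67, and among members with a sum of at least 5 it was 0.17. Batf3 stayed lower past 1.5-fold in 20 of 20 alternatives, from -1.84 to -0.63, while Id2 did in 17 and Irf8 in 15. How much dendritic cell RNA entered these ratios was not tested.

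Of 20 measured adhesion and migration genes, 9 were higher and 2 lower, where 14.6% and 6.76% of all genes were, with a median of 0.44. Itgal was 788 CPM in inhibitor members and 405 CPM in control members, a log2 ratio of 0.96, and its partner Itgb2 was 672 and 404 CPM. Itgam, the alpha chain of Mac-1, was 183 and 94.1 CPM, and Cd44, the hyaluronan receptor, 569 and 275 CPM. Spn was 316 and 171 CPM. All of these lay past 1.5-fold, and Cx3cr1, at 302 and 201 CPM with a log2 ratio of 0.59 (0.36 to 0.83), lay at that edge. After thinning Itgb2 had 0.43, Spn 0.40 and Cx3cr1 0.35, and with the classical limit lifted Itgal had 0.51, Itgb2 0.49 and Spn 0.37, so that these calls ended.

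S1pr5, the sphingosine-1-phosphate receptor with which patrolling monocytes leave the bone marrow, had the largest log2 ratio of the adhesion and migration list. It was 78.6 CPM in inhibitor members and 22.8 CPM in control members, a log2 ratio of 1.78 (1.15 to 2.47), and was seen in 14.4% and 6.06% of thinned members, against 0.150% of thinned control B cells. None of 401 thinned inhibitor B cells had an S1pr5 UMI, which allows a share of cells with a UMI of up to 0.748%. Classical monocytes had 1.45 and 2.45 CPM. With the barcodes of both sums included the ratio of S1pr5 was 0.48. Ccr2 was lower, at 293 CPM in inhibitor and 499 CPM in control members, a log2 ratio of -0.77 (-0.95 to -0.58). Thinned shares of Ccr2 were 25% and 39.4%, against 9.98% and 2.56% in B cells. With the barcodes of both sums included, the log2 ratio of Ccr2 was 0.09. Jaml, a junctional adhesion molecule-like protein, was the other lower gene, at 25.1 and 53.9 CPM. Ly6c2 had a log2 ratio of 0.04 (-0.29 to 0.38) and the marker Eno3 of 0.03 (-0.18 to 0.24), but both moved with the processing. Ly6c2 had -0.90 with free RNA subtracted and 0.55 with the classical limit lifted, and Eno3 had -0.86 with that limit lifted. The free RNA profile was taken from all deposited barcodes of a library and not from empty droplets. It therefore holds RNA of the cells themselves, classical monocytes among them.

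Of 15 survival and apoptosis genes 2 were higher, where 14.6% of all genes were. Bcl2, an inhibitor of cell death, was 128 CPM in inhibitor and 65.8 CPM in control members, and the caspase 8 inhibitor Cflar 99.1 and 50.2 CPM, but with a log2 ratio of 0.33 after thinning. The other 13 were within 1.5-fold, among them the growth factor receptor Csf1r at 657 and 494 CPM. Among 14 Fc receptor and phagocytosis genes, 3 were higher (Cd300a, Sirpa and Itgam) and 1 lower, where 14.6% and 6.76% of all genes were. The lower gene was the inhibitory IgG receptor Fcgr2b, at 179 and 295 CPM. Fcgr4 was 351 and 258 CPM, within 1.5-fold. Among 17 actin and motility genes, 4 were higher and 0 lower (Myo1f, Myo1g, Ezr and Msn), with a median of 0.36.

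**Figure D3:**
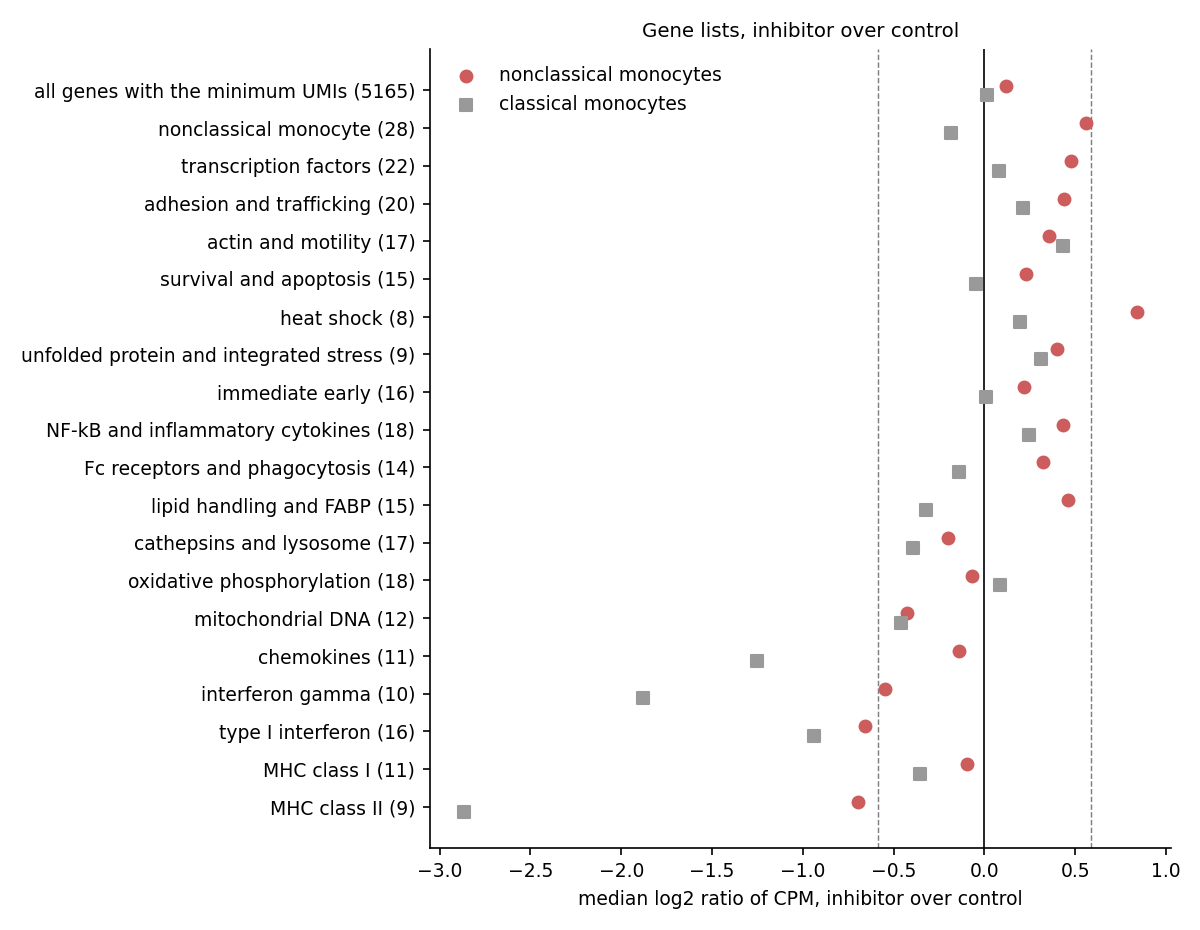
Median log2 ratio (inhibitor CPM over control CPM) for all compared genes and 19 gene lists in nonclassical monocytes (red circles) and for the same lists in classical monocytes (grey squares), with the number of genes measured in nonclassical monocytes in brackets. Dashed lines mark 1.5-fold in either direction. Among the lists drawn, heat shock lies highest in nonclassical monocytes at 0.84 and MHC class II lowest at -0.69, where classical monocytes are at -2.87.

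MHC class II genes, which load and present peptides to CD4 T cells, were lower in inhibitor members. Of 9 measured genes, 6 were lower and 0 higher, with a median log2 ratio of -0.69. Cd74 was 8552 CPM in inhibitor and 14711 CPM in control members, a log2 ratio of -0.78 (-0.82 to -0.75). H2-Aa was 2839 and 5091 CPM, H2-Ab1 2455 and 4944 CPM, and H2-Eb1 2333 and 4641 CPM. The chains of the presenting molecule and its chaperone lay together, and H2-DMa, which edits the bound peptide, was 299 and 484 CPM. Ciita, the coactivator that switches these genes on, was 79.9 and 110 CPM, a log2 ratio of -0.46 (-0.83 to -0.08), within 1.5-fold.

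Per cell, MHC class II RNA was lower in inhibitor members at both quartiles and at the median. Summed over H2-Aa, H2-Ab1, H2-Eb1 and Cd74, 70 of 241 inhibitor members (29.0%, 23.4 to 35.2%) and 70 of 135 control members (51.9%, 43.1 to 60.5%) had at least 100 UMIs per 10000. Under 10 UMIs per 10000 were 99 inhibitor members (41.1%) and 36 control members (26.7%). The medians were 18.5 per 10000 in inhibitor members and 106 in control members, and the quartiles were 3.005 and 147 in the inhibitor library and 8.52 and 441 in the control library. The cells of the libraries thus overlapped. After thinning, H2-Aa was found in 37.7% (31.5 to 44.2%) of inhibitor and 59.8% (51.0 to 68.3%) of control members, against 46.1% and 66.7% before thinning and 95.01% and 95.2% of thinned B cells, which carry MHC class II.

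In classical monocytes the same genes were lower in the inhibitor library, with a median of -2.87. H2-Aa there was 258 CPM in the inhibitor library and 2526 CPM in the control library, in 14.9% and 53.5% of barcodes. B cells had 3092 and 3191 CPM of H2-Aa, and C1q macrophages 7569 and 10907 CPM. Genes of conventional dendritic cells summed to 258 CPM in inhibitor and 360 CPM in control members, with 1 gene of the list at 0 in each library. Over its 5 measured genes that list had a median log2 ratio of -0.18, with 2 lower and 0 higher, where 6.76% and 14.6% of all genes were. Without the members holding genes of other cells the MHC class II median was -0.95. With a sum of at least 10 for Ace, Treml4 and Ear2, where Xcr1 had no UMI, H2-Aa was 1661 CPM in inhibitor and 3040 CPM in control members.

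The promoters of MHC class II genes carry conserved boxes, among them the Y box, an inverted CCAAT motif bound by NF-Y. In the 250 bases upstream of the start of each gene in RefSeq (GRCm38.p6), read on both strands, the letters CTGATTGG were found in 1258 of 32851 promoters (3.83%). Of the 9 genes of the list 6 matched a promoter, and 3 of them held the letters (H2-Aa, H2-Eb1 and H2-Oa). The stretches around the match are shown for the pair with the most RNA, with the Y box in capitals. H2-DMa, also lower in inhibitor members, had no match in its 2 promoters, and a tie between the letters and the ratios was not tested. H2-Aa lies on the minus strand at chr17:34287837-34287904 and H2-Eb1 on the plus strand at chr17:34305775-34305842.
H2-Aa: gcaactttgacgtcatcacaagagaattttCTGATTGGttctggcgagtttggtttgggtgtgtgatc
H2-Eb1: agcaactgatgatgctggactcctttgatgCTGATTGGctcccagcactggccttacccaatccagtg

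**Figure D4:**
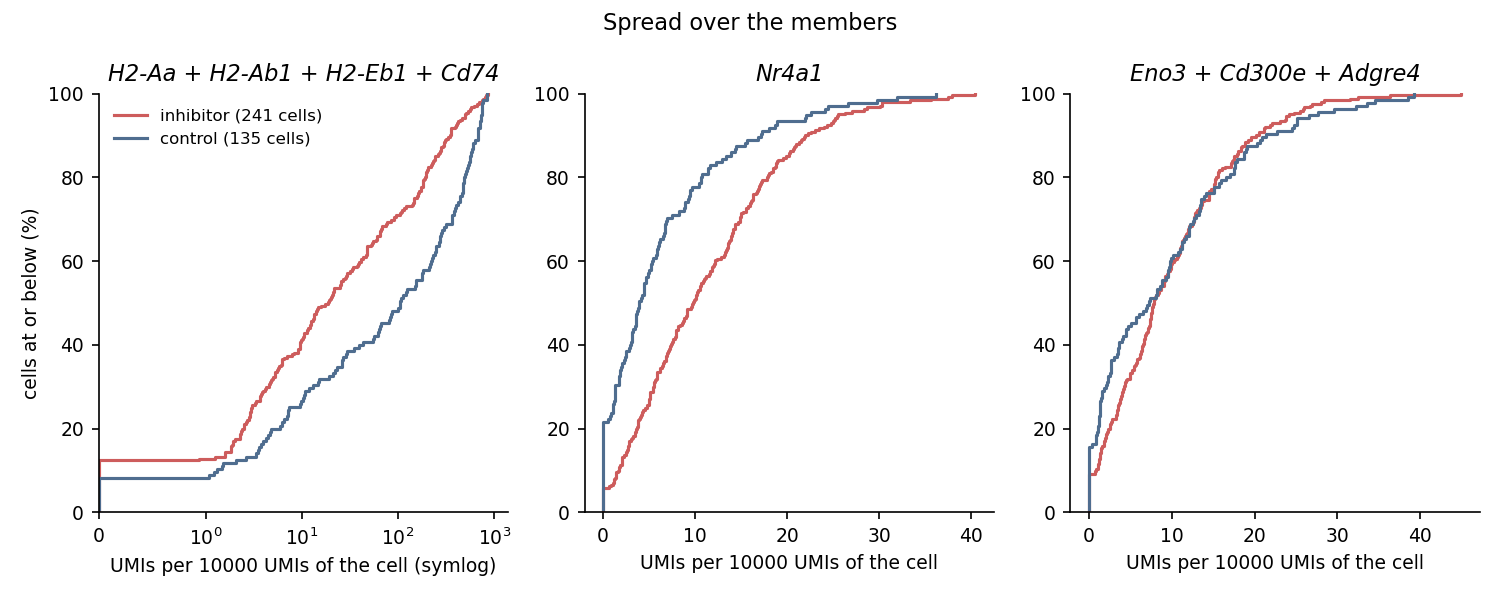
Cumulative share of nonclassical monocytes (percent of cells at or below) by UMIs per 10000 UMIs of the cell, for summed MHC class II genes (symmetric log axis), Nr4a1, and the summed markers Eno3, Cd300e and Adgre4, with 241 inhibitor cells in red and 135 control cells in blue. The curves of the markers lie close, with medians of 7.79 and 7.19, while inhibitor cells have lower MHC class II, with medians of 18.5 and 106, and higher Nr4a1, with medians of 9.77 and 3.94.

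Type I interferon genes were lower in inhibitor members in 9 of 16 measured genes and higher in 0, with a median log2 ratio of -0.66. Ifit1, which binds viral RNA, was 5.94 CPM in inhibitor and 64.8 CPM in control members, a log2 ratio of -3.45 (-4.63 to -2.44). Ifit2 was 4.62 and 51.1 CPM, Ifit3 10.6 and 59.4 CPM, and the antiviral enzyme Rsad2 (viperin) 10.6 and 54.8 CPM. Isg15, a ubiquitin-like modifier, was 95.1 and 195 CPM, and Mx1, a GTPase active against influenza viruses, 11.2 and 30.1 CPM. The regulator Irf7 was 151 and 176 CPM, within 1.5-fold.

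A few cells held much of this RNA. In the control library the 5 members with the most held 35.2% of the UMIs of the type I interferon list, and in the inhibitor library the top 5 held 19.4%. Of 71 control UMIs of Ifit1, 23 came from 1 cell, of 65 of Ifit3 28 did, and of 60 of Rsad2 24 did. The median per cell was 6.33 UMIs per 10000 in inhibitor and 7.46 in control members, while the summed levels were 962 CPM and 1583 CPM. With the top barcode of each gene left out, the log2 ratio of Ifit1 was -3.28 and that of Ifit3 -2.25. After thinning, 7.63% of inhibitor and 15.2% of control members had an Isg15 UMI, and 4.49% and 3.91% of B cells. In classical monocytes the list had a median of -0.94.

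Interferon-induced genes are switched on through the interferon-stimulated response element. Its letters GAAA, 2 bases of any kind and GAAA again, were found, on either strand and with overlaps counted, in 978 of 32851 RefSeq promoters (2.98%). For the interferon list 15 of 20 genes matched a promoter, and 8 of these held the motif (Isg15, Ifit1, Ifit3, Ifit3b, Rsad2, Oas1a, Bst2 and Stat2). The 4 stretches shown belong to genes that were lower in inhibitor members, with the motif in capitals on whichever strand it was read. Motif and ratio did not always go together. Ifit2, also lower, had no match in its 2 promoters, and Bst2 held the motif at a log2 ratio of -0.47, within 1.5-fold. On GRCm38.p6 Ifit1 lies at chr19:34640755-34640843 and Ifit3 at chr19:34583343-34583446 on the plus strand, and Rsad2 at chr12:26456533-26456602 and Isg15 at chr4:156200845-156200926 on the minus strand.
Ifit1: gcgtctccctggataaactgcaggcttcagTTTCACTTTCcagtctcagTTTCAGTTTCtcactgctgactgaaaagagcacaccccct
Ifit3: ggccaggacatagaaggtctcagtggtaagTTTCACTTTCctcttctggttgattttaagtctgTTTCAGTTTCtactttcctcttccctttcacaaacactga
Rsad2: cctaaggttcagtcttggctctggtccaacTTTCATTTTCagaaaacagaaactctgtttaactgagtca
Isg15: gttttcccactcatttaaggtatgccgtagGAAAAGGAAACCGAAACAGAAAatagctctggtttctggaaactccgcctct

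Ifit1 and Ifit3 each hold 2 separate matches and Isg15 3 overlapping ones. These matches describe the letters in the window only, and the binding of a factor was not measured.

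Of 11 measured MHC class I genes, which interferons also raise, 1 was higher and 1 lower, with a median of -0.10. Tap1, a peptide transporter, was the lower one, at 93.1 CPM in inhibitor and 148 CPM in control members.

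Of 10 measured genes induced by interferon gamma, 5 were lower and 0 higher, with a median of -0.55. Cxcl9 and Cxcl10, chemokines that draw T cells, came from few cells: 67.6% of their summed UMIs in the inhibitor library and 40.7% in the control library lay in 1 cell each. Cxcl10 was 95.8 CPM in inhibitor and 182 CPM in control members, but its log2 ratio was 0.66 in place of -0.92 without the top barcode of each library and 1.69 without simulated doublets. Among 11 measured chemokines, 5 were lower and 1 higher. Ccl5 was 63.4 and 328 CPM, Ccl2 was higher at 58.8 and 18.3 CPM, and all 62 control UMIs of Ccl12 came from 1 cell, against 1 inhibitor UMI. The log2 ratio of Ccl2, 1.69, was 0.09 among members with a sum of at least 5 and 0.47 among those with no UMI of the classical and C1q genes, both within 1.5-fold.

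Of 18 measured genes of NF-kB and inflammatory cytokines, 3 were higher and 1 lower, shares near the 14.6% and 6.76% of all genes, with a median of 0.43. Il1b, the main inflammatory cytokine of monocytes, was 1185 CPM in inhibitor and 858 CPM in control members, and Tnf was 53.5 and 58.4 CPM, both within 1.5-fold. The bacterial lipoprotein sensor Tlr2 was 112 and 64.8 CPM, while the interleukin 1 antagonist Il1rn was lower, at 42.9 and 87.7 CPM. Among 10 measured genes of complement and uptake of dying cells, 4 were higher and 2 lower. C5ar1, the receptor of the complement fragment C5a, was 100 and 39.3 CPM, with a log2 ratio of 1.35 (0.86 to 1.88).

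Heat shock genes, the chaperones of damaged proteins, had the highest median of the lists with more than 4 measured genes, at 0.84 over 8 measured genes, of which 5 were higher and 0 lower. Hspa1a was 767 CPM in inhibitor and 344 CPM in control members, and its near-identical copy Hspa1b 474 and 169 CPM, a log2 ratio of 1.49 (1.25 to 1.73); reads that both share leave the split between them uncertain. Hsp90aa1 was 536 and 269 CPM and Hsph1 44.2 and 21.0 CPM, the last with a log2 ratio of 0.33 after thinning. Per cell, the list had a median of 51.5 UMIs per 10000 in inhibitor and 32.8 in control members. In classical monocytes the list had a median of 0.20, and Hspa1b was at -0.06. Hspa5 (BiP), the chaperone of the endoplasmic reticulum, was 676 and 332 CPM, and 3 of the 9 genes of the unfolded protein list were higher. The immediate early genes, which answer to acute stimuli, had a median of 0.22, with 3 of 16 higher, where 14.6% of all genes were. The 3 were Nr4a1 itself, Dusp1 and Fosl2, and Fos was 1579 and 1411 CPM.

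The drug's target and its family were measured in these cells. Fabp5 was 290 CPM in inhibitor and 211 CPM in control members, a log2 ratio of 0.46 (0.23 to 0.69), within 1.5-fold, and 36.0% of its inhibitor UMIs and 32.9% of its control UMIs came from 1 cell each. After thinning 13.1% of inhibitor and 14.4% of control members had a Fabp5 UMI, against 2.49% and 2.41% of B cells. The sign of the Fabp5 ratio changed with the cells taken, to -0.15 among members with a UMI of Eno3, Cd300e or Adgre4, to -0.40 without members holding genes of other cells, and to -1.13 with the classical limit lifted. In classical monocytes Fabp5 was 78.8 CPM in the inhibitor library and 559 CPM in the control library, a log2 ratio of -2.83, and in C1q macrophages it was 718 and 526 CPM. Fabp4, the fatty acid binding protein of fat cells and macrophages, was 403 and 279 CPM in members, a log2 ratio of 0.53 (0.33 to 0.73), and 44.9% and 37.9% of thinned members had a UMI, against 0.249% and 0.301% of B cells. Fabp4 was lower in inhibitor classical monocytes, at -4.12, and with the classical limit lifted it had -0.68 among members.

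Of 15 measured genes of lipid handling, 5 were higher and 2 lower, where 14.6% and 6.76% of all genes were, with a median of 0.46. Cd36 was 236 CPM in inhibitor and 129 CPM in control members. Also higher were Scarb1, the HDL receptor, at 144 and 91.3 CPM, Cpt1a, which feeds fatty acids into mitochondria, at 61.4 and 38.4 CPM, and Lipe, the hormone-sensitive lipase, at 36.3 and 22.8 CPM. The genes lower were Lpl (lipoprotein lipase) at 19.2 and 66.7 CPM and Lipa, the lysosomal acid lipase, at 97.7 and 194 CPM. Of the cholesterol synthesis list 4 of 20 genes had enough UMIs and all 4 were higher, among them Msmo1, a sterol oxidase, at 33.7 and 11.0 CPM. Srebf2, the master regulator of that list, had 48.9 and 29.2 CPM, but a log2 ratio of -0.04 among members with no UMI of the classical and C1q genes. Of 10 measured genes of cholesterol efflux, 1 was higher and 2 lower. The droplet protein Plin2 was 462 and 349 CPM and Apoe 3802 and 3616 CPM, both within 1.5-fold.

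Among other metabolic genes, the 18 oxidative phosphorylation genes had 0 higher and 0 lower calls, and 2 of 14 glycolysis genes were higher (Pfkp and Slc2a1). Over all genes 14.6% were higher and 6.76% lower, so the glycolysis count is near the share of all genes. Of 12 genes of mitochondrial DNA, mt-Cytb was lower, at 3004 CPM in inhibitor and 4971 CPM in control members. Hmox1, which breaks down haem, was 322 and 160 CPM, while the ferritin heavy chain Fth1 was 5230 and 8776 CPM and the peroxiredoxin Prdx1 534 and 914 CPM. Among members with no UMI of the classical and C1q genes Fth1 had a log2 ratio of -0.39 and Ctsd of -0.52, both within 1.5-fold. Of 17 cathepsin and lysosome genes, 1 was higher and 3 lower, with Ctsd (cathepsin D) at 166 and 348 CPM and Hexa, a hexosaminidase chain, at 207 and 324 CPM. Of 9 measured genes of the tissue macrophage list 5 were lower and 0 higher, with a median of -1.07, but members with a sum of at least 5 gave a median of 0.14. Axl was 23.8 and 74.0 CPM, and all 53 control UMIs of Gpnmb came from 3 cells, against 2 UMIs in the inhibitor library.

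The genes named by size were the 12 with the lower bound of their ratio farthest above 1, and the 12 farthest below. Noct (nocturnin), a clock-controlled phosphatase of NADPH, led those higher, at 131 CPM in inhibitor members and 24.7 CPM in control members, a log2 ratio of 2.41 (1.83 to 3.05). In classical monocytes its ratio was 2.81, so that it was higher in other cells of the inhibitor library as well. In B cells it was 26.6 and 3.86 CPM, but inhibitor B cell barcodes also held more monocyte RNA. Emilin2, an extracellular glycoprotein, was 240 and 74.0 CPM, Stap1, a signalling adaptor, 617 and 237 CPM, and Hip1, an endocytic adaptor, 223 and 74.9 CPM. Osm (oncostatin M), a cytokine of the interleukin 6 family, was 95.1 and 29.2 CPM, and Nab1, a corepressor of EGR factors, 166 and 57.5 CPM. Pi16, Tmem38b and Klf7 had log2 ratios of 2.07, 1.51 and 1.84. Hspa1b and S1pr5 were also among them.

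The 12 lower genes were Ifit1, Ifit2, Ifit3 and Rsad2, H2-Ab1 and H2-Eb1, Lpl, Axl, Cxcl16, Pdcd2, Tmem86a and Cstb. Cxcl16, a membrane-bound chemokine and scavenger of oxidised lipoprotein, was 48.9 CPM in inhibitor and 144 CPM in control members, a log2 ratio of -1.56, and Cstb (cystatin B), an inhibitor of cathepsins, was 177 and 374 CPM. Axl, a receptor tyrosine kinase for the uptake of dying cells, had a log2 ratio of -1.64.

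Most of the named genes differed the same way in other cells of the libraries. In classical monocytes 8 of the 11 higher genes with enough UMIs and 10 of the 12 lower genes passed 1.5-fold in the same direction, and none in the other. In barcodes with both sums these counts were 9 of 12 and 11 of 12. Among C1q macrophages they were 7 of 10 and 8 of 12, with 2 of the lower genes past 1.5-fold the other way. These counts are to be read beside those of all genes with at least 50 UMIs in the class. In classical monocytes 1208 of 9672 such genes were higher and 1501 lower, and in C1q macrophages 1428 of 6774 were higher and 1068 lower. B cells gave 7 of 10 for the higher genes and 3 of 10 for the lower genes, with 2 the other way. How much of the B cell counts came from monocyte RNA in those barcodes was not tested. Since the same 2 libraries stand behind each cell type, these counts are not independent of each other. The 3 higher genes that did not pass 1.5-fold in classical monocytes were Hspa1b at -0.06, Osm at 0.51 and Tmem38b at 0.41, and S1pr5 had too few UMIs there. The lower genes that did not pass were Lpl, at 0.23 in classical monocytes against -1.80 in nonclassical monocytes, and Cstb at -0.55. Whether a ratio differed between the cell types was not tested.

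**Figure D5:**
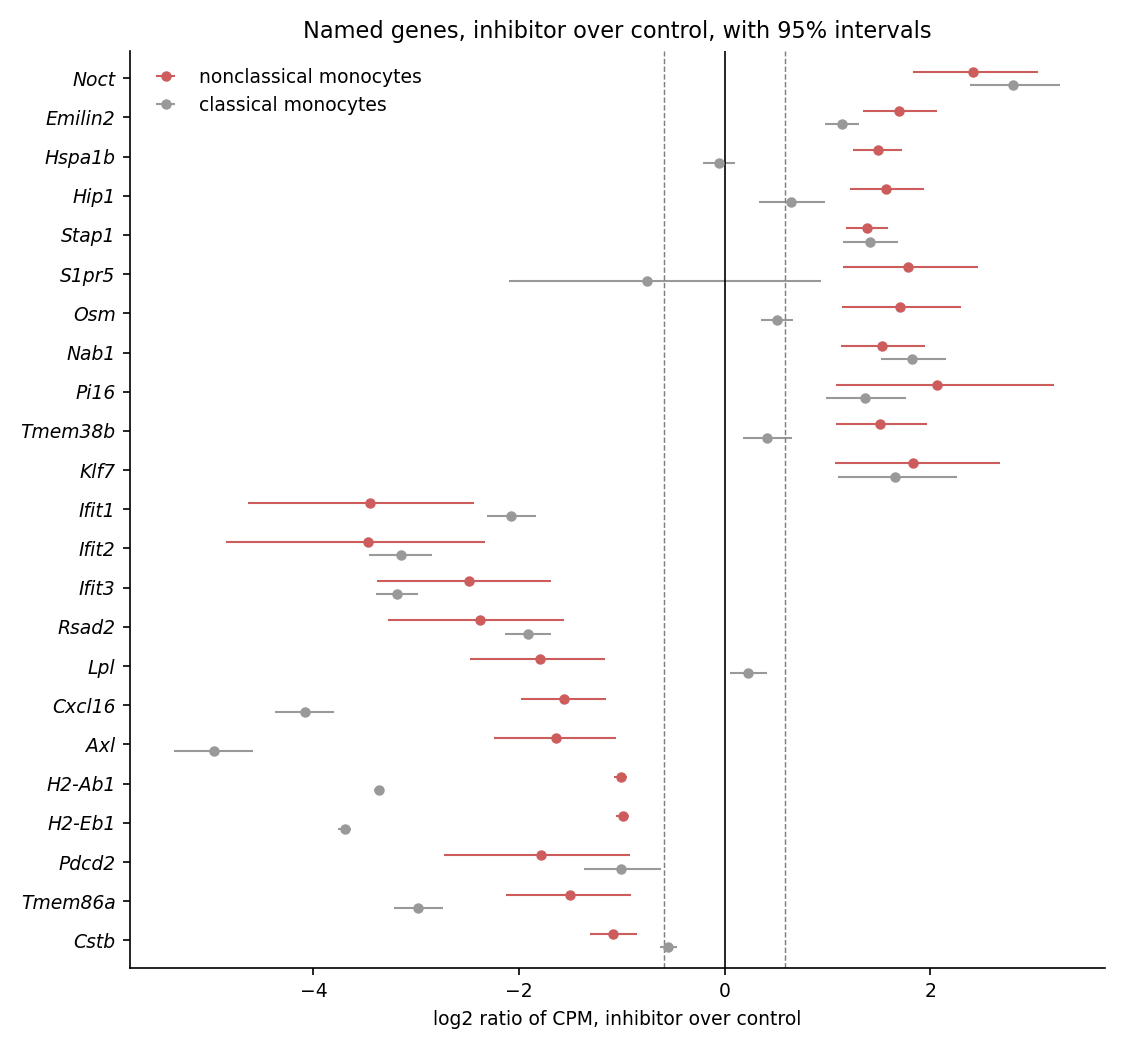
Log2 ratio of CPM, inhibitor over control, of the named genes in nonclassical monocytes (red, upper point of each pair) and classical monocytes (grey, lower point), with 95% intervals and dashed lines at 1.5-fold. Noct is at 2.41 and 2.81, Hspa1b at 1.49 and -0.06, Ifit1 at -3.45 and -2.07, and H2-Ab1 at -1.01 and -3.36.

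Genes of other cell types were not absent among the members. The rule had left out barcodes with a UMI of its T cell, B cell or neutrophil genes and had limited its complement genes. Low sums of the T cell, B cell, neutrophil and Kupffer cell lists may thus be set in part by the rule. The hepatocyte list summed to 184 CPM in inhibitor and 1928 CPM in control members, and the conventional dendritic cell list to 258 and 360 CPM. The summed level of the T cell list was 18.5 CPM in inhibitor and 18.3 CPM in control members, of the B cell list 186 and 218 CPM, of the NK cell list 31.0 and 54.8 CPM and of the neutrophil list 283 and 624 CPM. Kupffer cell genes summed to 21.1 and 12.8 CPM, endothelial genes to 44.9 and 71.2 CPM, platelet genes to 1.98 and 8.22 CPM and plasmacytoid dendritic cell genes to 227 and 297 CPM. With an estimate of free RNA subtracted from each library, 719 genes were higher and 371 lower, within 1.5 times of the counts above. Of 5 measured cell cycle genes only Stmn1 was past 1.5-fold, at 35.0 and 120 CPM, and it was seen in 4.98% of inhibitor and 6.67% of control members.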

How the data were processed

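Droplet single-cell RNA was measured in 1 inhibitor and 1 control library. The authors deposited raw UMI counts per gene and barcode, written by cellranger 5.0.1 per the file headers; the submitters' processing notes also name Cell Ranger, R 3.0, Seurat 3 and the build mm9, and no source used here gives the mapping parameters.

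Members and gene lists were chosen with earlier results of these data known. UMIs were summed over the members of a library and divided by their total to give CPM, with exact Poisson, Clopper-Pearson or conditional binomial intervals at 95%; amplification was counted through UMIs, so intervals cover counting error only. A gene entered the inhibitor over control comparison with at least 50 UMIs over both libraries and the comparisons between cell types with at least 20 UMIs per library, and was called at 1.5-fold and at 2-fold in both libraries. Where a group had 0 UMIs, a bound was set at 3 UMIs over its cells. B cells had at least 3 UMIs of Cd79a. Named genes had a UMI in at least 10% of the members of the higher library, a CPM of at least 0.5 times that of its whole library and no rule, mitochondrial, ribosomal, haemoglobin, immunoglobulin, T cell receptor or clone-named identity; the 12 per direction with the interval bound farthest from 1 were taken. Doublets were marked by simulated pairs (0.8% per 1000 barcodes) and kept in the main values. Some genes of the lists and of the named genes are not reported here. The 44 lists were described by counts and medians. Promoters came from RefSeq (GRCm38.p6).

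Alternatives changed the depth, mitochondrial and member limits, the scale, thinning, free RNA, doublets, single barcodes and the UMI minimum. Free RNA was estimated as the profile of all deposited barcodes of a library, scaled by the hepatocyte list of its members. Tools were Python 3.11.15, numpy 2.4.6, scipy 1.17.1, pandas 2.3.3, scikit-learn 1.9.0, matplotlib 3.10.9, R 4.3.3 and edgeR 4.0.16 for TMM factors.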

Additional observations from a re-analysis of the deposited data

Results flagged for a closer look

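Barcodes with at least 3 UMIs of both monocyte sums made up 6.27% of kept inhibitor barcodes and 2.21% of kept control barcodes. They joined the members only where the classical limit was lifted.

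Several genes had inhibitor over control ratios of opposite sign in nonclassical and classical monocytes of the same libraries. These differences were not tested, and the classical monocytes of the libraries were not alike. A Vcan UMI was found in 85.6% of inhibitor and 26.9% of control classical monocytes, and an Adgre4 UMI in 14.6% and 23.8%. The lipase Lpl had a log2 ratio of -1.80 in nonclassical and 0.23 in classical monocytes. Adgre4 had 0.32 and -1.17, and Cx3cr1 0.59 and -0.99. The lipid genes Cd36, Fabp4 and Fabp5 had 0.88, 0.53 and 0.46 in nonclassical monocytes, and -1.83, -4.12 and -2.83 in classical monocytes. The Fabp5 value in nonclassical monocytes was -0.40 without members holding genes of other cells and 0.91 among members with a rule sum of at least 5.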

How the results depend on the processing

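No paired analysis was possible because each group is 1 library, and for the same reason no replicate could be left out. Over 23 settings 3102 values were recomputed. Genes higher in inhibitor members numbered 499 after division by the median ratio, 335 after thinning, 1188 from 20 UMIs and 238 from 200 UMIs. Genes lower numbered 216 without any UMI of the classical or C1q genes, 699 with the classical limit lifted, 127 after thinning, 858 from 20 UMIs and 67 from 200 UMIs. The share ratio was 1.08 with the classical limit lifted and -1.25 over the 3 myeloid classes. The nonclassical list median was 0.17 with that limit lifted and 0.28 without members holding genes of other cells. The MHC class II median stayed below 0, at -1.05 without Ear2 in the rule, -1.33 with the limit lifted, -0.90 among members with a marker UMI, -0.95 without members holding genes of other cells, -0.996 as a mean per cell and -1.08 after thinning. With the limit lifted, 49 genes were lower than in classical monocytes in both libraries. At 4000 UMIs the H2-Aa shares were 51.4% and 69.1% in inhibitor and control members; Fabp5 shares were 25.1% in inhibitor members, and at 1000 UMIs 8.33% and 8.89%.

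Of the 80 followed genes past 1.5-fold, calls lost numbered 25 with the classical limit lifted, 11 at a sum of at least 5, 11 after thinning, 10 without any UMI of the classical or C1q genes, 10 as a mean per cell, 10 without genes of other cells, 9 among members with a marker UMI and at most 4 under each other setting. Among values past 1.5-fold, the sign changed for the tissue macrophage list (0.14 at a sum of at least 5, 0.15 without Ear2, 0.10 thinned, 0.075 without top barcodes, 0.13 from 200 UMIs), for Irf8 (0.17 at a sum of at least 5, 0.17 with a marker UMI, 0.024 without genes of other cells), for Srebf2 (-0.039 without classical or C1q UMIs), for Cxcl10 (1.69 without doublets, 1.81 without genes of other cells, 0.66 without top barcodes), for Ccr2 (0.094 with the limit lifted) and for Alb (0.58 with free RNA subtracted). Among values within 1.5-fold it changed for 20 genes with the limit lifted, among them Fabp5 (-1.13), Eno3 (-0.86), Apoe (-0.83), Cd274 (-0.71) and Fabp4 (-0.68), for Ly6c2 with free RNA subtracted (-0.90) and for the chemokine list without doublets (0.36). Alb belongs to the hepatocyte list that sets the amount of free RNA subtracted, so its value there is fixed in part by the subtraction. The causes of the other changes were not tested. Heat shock medians ranged over 0.60 to 1.16 and type I interferon medians over -1.03 to -0.48. The alternatives on genes of other cells, marker UMIs, the classical limit, shared barcodes and top barcodes were chosen after seeing the data. Member depth, with 241 and 135 cells, limits genes under 50 UMIs.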

Other observations

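The classical monocyte list, which the rule's F13a1, Chil3 and Vcan do not belong to, had 14 measured genes in members. Of these, 5 were higher in the inhibitor library and 1 lower, where 14.6% and 6.76% of all genes were. The median log2 ratio was 0.54, but it moved with the cells taken. It was 0.18 among members with a sum of at least 5 and 0.92 with the classical limit lifted. Lyz2 (lysozyme) was 12179 CPM in inhibitor and 8403 CPM in control members, a log2 ratio of 0.54, and Ifitm6 was 639 and 282 CPM, a ratio of 1.18. In classical monocytes the ratios of these genes were 0.47 and 1.19.

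Checkpoint ligands had 1 of 6 measured genes higher, where 14.6% of all genes were. The higher gene was the "do not eat me" receptor Sirpa, at 391 CPM in inhibitor and 228 CPM in control members. Cd274 (PD-L1) was 61.4 and 54.8 CPM, a log2 ratio of 0.16 (-0.32 to 0.66). Among 9 measured genes of the TGF-beta pathway, 1 was higher, a share near the 14.6% of all genes. Tgfb1 was 486 and 329 CPM, within 1.5-fold.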
